A study of Rattus norvegicus with 10 samples.

Results

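Ras guanyl nucleotide exchange factors of the RasGRP and Sos families were followed in fetal rat hearts. Their genes are Rasgrp1, Rasgrp2, Rasgrp3, Rasgrp4, Sos1 and Sos2. They were picked by symbol from the table of expression values, and all 6 were among the 18025 genes listed. The choice was made with the difference of Rasgrp1 between the groups already known, so the difference of each of the 6 genes is given as a description, with no test.

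Ras proteins are small GTPases that are inactive when they hold GDP and active when they hold GTP. An exchange factor opens the nucleotide pocket, GDP leaves and GTP enters, and active Ras then binds RAF kinases, which switch on MEK and ERK, while GTPase-activating proteins end the signal. RasGRP and Sos proteins carry the same kind of catalytic domain, named after yeast CDC25, but are recruited by different signals. RasGRP proteins have EF hands, which bind calcium, and a C1 domain, which in several of them binds diacylglycerol, the lipid that phospholipase C releases. Sos proteins are brought to activated receptor tyrosine kinases by the adaptor Grb2.

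The hearts were taken from wild-type Sprague-Dawley fetuses on embryonic day 19.5 of gestation, and messenger RNA was sequenced from 5 libraries of the control (CON) group and 5 of the hyperglycemia (HG) group. Dams were 3 months old. Dams of the HG group had received streptozotocin, a toxin of the insulin-producing beta cells, on 3 consecutive days and were diabetic, with non-fasting glucose above 16 mM, whereas dams of the CON group had received citric acid buffer only. The question was how gene expression in the fetal heart differed after gestation in a hyperglycemic mother. The sources do not say whether the 5 libraries of a group came from separate dams or litters, and fetal sex is not given, so p-values measure the spread between libraries, which may be technical. The methods of the study mention pooled RNA, and one legend mentions isolated cardiomyocytes. The labels name heart as the source. The values differed from library to library, and endothelial, macrophage and fibroblast genes were present in all of them. Both would also hold for separate pools or an impure isolate, so neither settles which material was used. In RNA from several cell types, fewer cells of a type and less RNA per cell cannot be told apart.

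Values are FPKM, fragment numbers taken relative to gene length and to library size, so that levels can be set side by side between genes. Reads on genes, recovered from the step between FPKM values, numbered 17639895 to 18240006 in a CON library and 16672876 to 19109844 in an HG library. Fold changes are differences of log2(FPKM + 0.1), which understate the change of low genes. Over the 14542 genes tested, which averaged 0.1 FPKM or more, the median log2 fold change (HG against CON) was 0.09, and it was 0.01 after the libraries were rescaled by median-of-ratios factors. The cardiomyocyte markers Tnnt2, Tnni3, Myh6, Myh7, Actc1, Actn2, Ryr2 and Nppa summed to 21027 to 22354 FPKM in CON and 17873 to 21587 FPKM in HG, as the most abundant of the marker sets read here.

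Rasgrp1 and Rasgrp3 were the most abundant RasGRP transcripts in the CON hearts. The CON and HG values of Rasgrp1 did not overlap, and those of Rasgrp3 did. Their promoters are shown for these reasons. Each runs from 250 bases before to 50 bases after the transcription start in RefSeq (build GRCr8), 5′ to 3′ on the strand of the gene, with capitals on matches to GGGCGG (GC box) and CANNTG (E-box). The Rasgrp1 window is chr3:124684030-124684329 and the Rasgrp3 window is chr6:25710542-25710841, both on the minus strand.
Rasgrp1: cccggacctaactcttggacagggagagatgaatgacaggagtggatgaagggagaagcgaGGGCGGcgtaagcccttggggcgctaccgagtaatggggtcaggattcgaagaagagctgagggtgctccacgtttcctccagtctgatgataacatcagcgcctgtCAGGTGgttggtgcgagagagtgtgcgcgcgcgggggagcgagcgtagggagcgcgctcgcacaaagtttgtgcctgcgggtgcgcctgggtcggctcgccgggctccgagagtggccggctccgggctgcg
Rasgrp3: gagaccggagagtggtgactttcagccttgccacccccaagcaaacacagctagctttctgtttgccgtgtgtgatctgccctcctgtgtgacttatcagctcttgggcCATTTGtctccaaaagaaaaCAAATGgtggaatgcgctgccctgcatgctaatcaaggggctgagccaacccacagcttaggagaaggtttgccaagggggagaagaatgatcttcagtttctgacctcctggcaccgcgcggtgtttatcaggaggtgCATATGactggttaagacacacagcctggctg

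Of the 6 genes, 5 matched an entry of the promoter table, and Sos2 is only named. The Rasgrp1 window was 64.0% G and C with 28 CpG dinucleotides, and the Rasgrp3 window 52.7% with 6. The median over all 33469 promoters of the table was 51.7% with 7. The windows of Rasgrp2, Rasgrp4 and Sos1 held 57.0%, 61.3% and 81.7% G and C, with 11, 8 and 50 CpG. Both strands were searched, and the capitalised matches did not overlap each other. A GC box was found once each at Rasgrp1, Rasgrp2 and Rasgrp4, 3 times at Sos1 and not at Rasgrp3, against 33.1% of all promoters with at least 1. An E-box was found once each at Rasgrp1 and Sos1, 3 times each at Rasgrp2 and Rasgrp3 and not at Rasgrp4, against 72.1% of all promoters. AP-1 (TGANTCA, in 7.33% of all promoters), ETS (CCGGAAG, 8.75%), cyclic AMP response (TGACGTCA, 1.83%) and core box (TATAAA, 14.2%) letters were in none of the 5 windows.

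Rasgrp1 (NCBI Gene 29434) encodes the diacylglycerol-activated exchange factor best known from T cells, where it acts downstream of phospholipase C gamma. Its FPKM were 9.08, 10.7, 10.7, 8.56 and 11.0 in the CON libraries 1 to 5. In the HG libraries 1 to 5 they were 0.637, 0.993, 0.826, 1.67 and 1.12. All HG libraries lay far below the lowest CON library, and HG library 4 was the highest of its group. The CON mean was 10.02 ± 1.12 FPKM and the HG mean 1.05 ± 0.390 FPKM (± SD over 5 libraries), a 9.56-fold lower mean, with a log2 fold change of -3.20 (SE 0.188). Between 794 and 997 reads lay behind a CON value and between 62 and 150 behind an HG value. The coefficient of variation was 37.3% in HG, where counting error alone gives 10.3%, and 11.1% in CON, where it gives 3.30%. Relative to its mean, the low HG level thus varied more between libraries than the CON level, and more than counting error alone gives.

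Rasgrp2 (361714) encodes an exchange factor that acts mainly on Rap1 and is best known from platelets. Its FPKM were 4.95, 5.17, 4.86, 5.93 and 4.15 in CON and 5.65, 5.96, 5.67, 5.16 and 5.60 in HG, so that the groups overlapped. The log2 fold change was 0.17 (SE 0.0843), with means of 5.01 ± 0.639 and 5.61 ± 0.289 (SD, n = 5 each).

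Rasgrp3 (313874), known from endothelium and B cells, was the most abundant of the 6 transcripts in both groups. Its FPKM were 17.0, 15.6, 13.6, 15.4 and 15.5 in CON and 20.4, 13.5, 16.5, 15.7 and 15.7 in HG. HG library 1 was the highest and HG library 2 the lowest of all 10, so the HG values spanned the CON values. The means were 15.5 ± 1.22 and 16.3 ± 2.51 (SD, n = 5 each), with a log2 fold change of 0.07 (SE 0.0932) that was -0.01 without HG library 1 and -0.02 with median-of-ratios factors. With 1459 to 2362 reads in a library, depth was not what limited this comparison.

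Rasgrp4 (170668), known from mast cells, was the lowest of the 6, with 28 to 63 reads in a library. Its FPKM were 0.257, 0.365, 0.519, 0.375 and 0.404 in CON and 0.418, 0.426, 0.528, 0.537 and 0.629 in HG. Every HG value exceeded the CON median, but CON library 3 lay inside the HG range. The means were 0.384 ± 0.0937 and 0.507 ± 0.0876 (SD, n = 5 each), and the log2 fold change was 0.34 (SE 0.172). Counting error alone gives a coefficient of variation of 15.5% in CON and 13.6% in HG, of the 24.4% and 17.3% observed.

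Sos1 (313845) and Sos2 (85384) encode the exchange factors that Grb2 brings to receptor tyrosine kinases. Sos1 had FPKM of 8.09, 8.50, 8.47, 8.55 and 8.11 in CON and 7.73, 7.92, 7.78, 8.75 and 9.10 in HG. HG libraries 1, 2 and 3 lay below all CON libraries and HG libraries 4 and 5 above all of them, so the means of 8.34 ± 0.225 and 8.26 ± 0.629 (SD, n = 5 each) hid a wider spread in HG. The log2 fold change of Sos1 was -0.02 (SE 0.0570), and -0.11 with median-of-ratios factors or quantile normalization. Sos2 had FPKM of 5.27, 4.83, 5.55, 4.98 and 5.09 in CON and 5.67, 5.32, 5.41, 5.68 and 6.20 in HG. The groups overlapped, with means of 5.14 ± 0.280 and 5.66 ± 0.340 (SD, n = 5 each) and a log2 fold change of 0.13 (SE 0.0615), which was 0.05 with median-of-ratios factors.

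**Figure D1:**
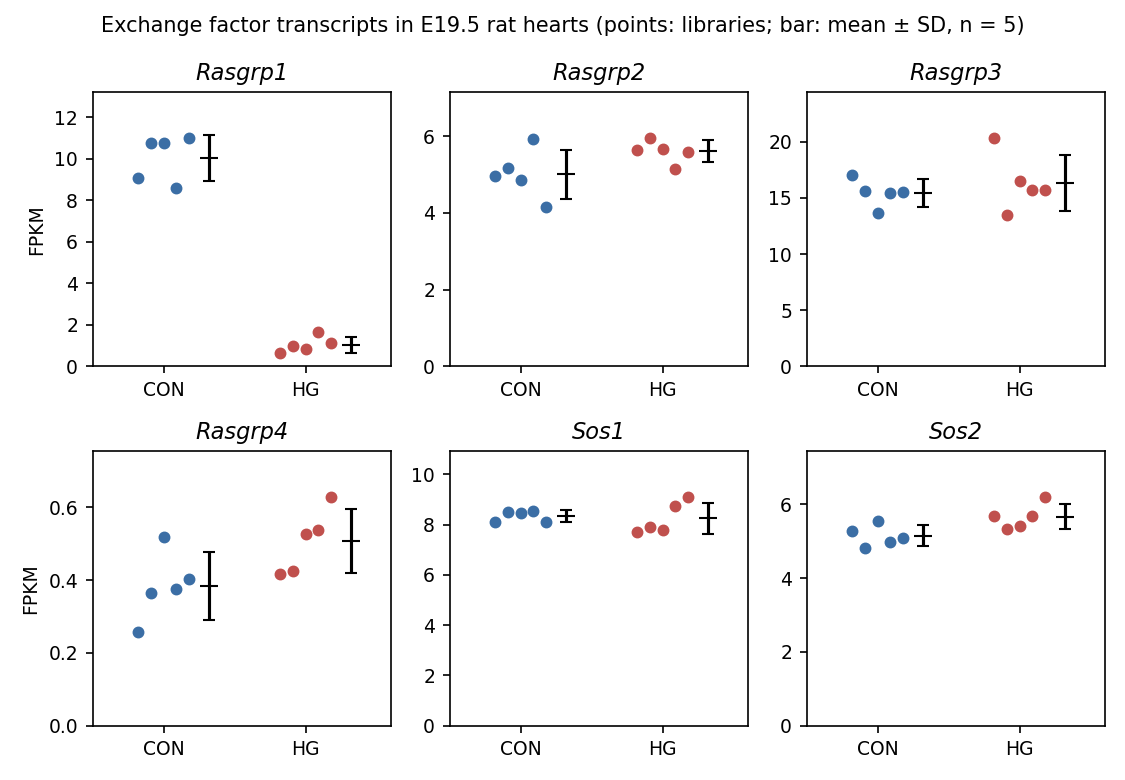
FPKM of Rasgrp1, Rasgrp2, Rasgrp3, Rasgrp4, Sos1 and Sos2 in each library (points; blue CON, red HG; linear axes from 0), with the mean ± SD of 5 libraries as a bar. The CON and HG points of Rasgrp1 lie apart (8.56 to 11.0 against 0.637 to 1.67), and those of the other genes overlap.

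In counts over the 6 genes, all passed the filter on low values, and 1, Rasgrp1, had an adjusted p under 0.05 in limma. Over all genes tested, 40.1% did, 28.4% as higher and 11.8% as lower in HG. Rasgrp1 was also the 1 of the 6 with an absolute log2 fold change above 1 (1.94% of all genes tested, called DEGs below). It was likewise the 1 whose groups did not overlap, against 27.4% of all genes tested. These counts rest on the contrast that was known when the genes were picked, and nothing is read from them.

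On the FPKM scale, the order of the levels in CON was Rasgrp3, Rasgrp1, Sos1, Sos2, Rasgrp2 and Rasgrp4. The ranges of neighbours in that order did not overlap except those of Sos2 and Rasgrp2, though the lowest Rasgrp1 value barely cleared the highest Sos1 value. In HG the order was Rasgrp3, Sos1, Sos2, Rasgrp2, Rasgrp1 and Rasgrp4, again with Sos2 and Rasgrp2 overlapping. Rasgrp1 thus lay next to the top in CON and next to the bottom in HG, where its lowest library (0.637) was just above the highest Rasgrp4 library (0.629).

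The summed FPKM of the 6 genes was 44.4 ± 0.616 in CON (43.8 to 45.2) and 37.4 ± 2.32 in HG (34.1 to 40.5; SD, n = 5 each). Without Rasgrp1, the other RasGRP genes summed to 20.8 ± 1.31 in CON and 22.5 ± 2.44 in HG, and the Sos genes to 13.5 ± 0.320 and 13.9 ± 0.925, with overlapping ranges for both sums. Rasgrp1 made up 32.5 ± 3.65% of the FPKM of the 4 RasGRP genes in CON and 4.54 ± 1.81% in HG. The share of Rasgrp3 was 50.02 ± 3.11% in CON and 69.2 ± 3.90% in HG. The larger Rasgrp3 share went with a smaller sum of the 4 genes, 30.9 ± 0.855 FPKM in CON and 23.5 ± 2.24 FPKM in HG.

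**Figure D2:**
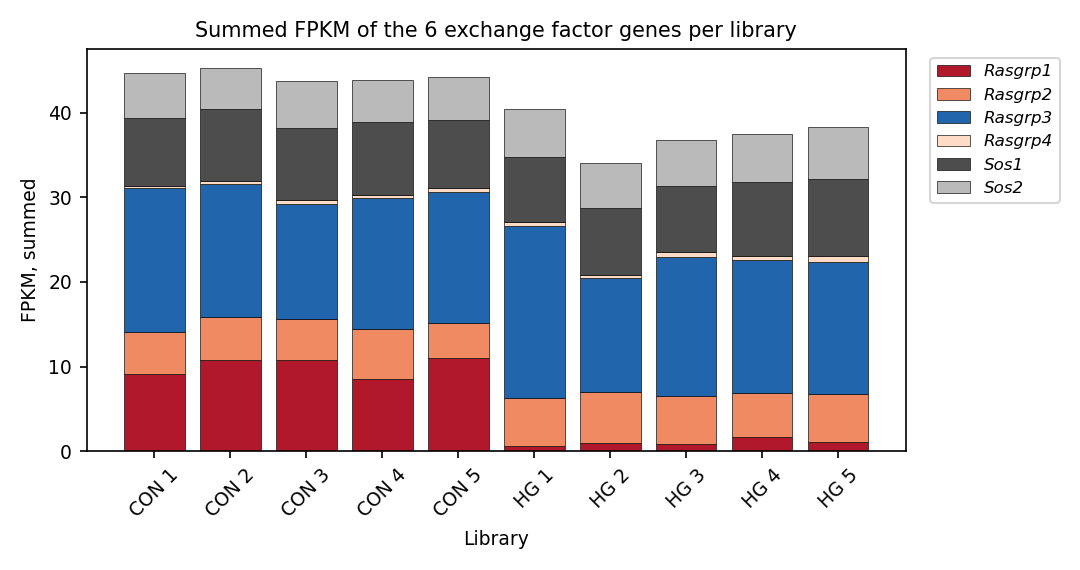
Summed FPKM of the 6 exchange factor genes in each library, stacked by gene. The Rasgrp1 block (8.56 to 11.0 FPKM in CON) is a thin band of 0.637 to 1.67 FPKM in HG, and the whole stack is 43.8 to 45.2 FPKM in CON and 34.1 to 40.5 FPKM in HG.

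The terms that the authors attached to the genes set the families apart. All 6 carried guanyl-nucleotide exchange factor activity and the KEGG pathways MAPK signaling, Ras signaling and Pathways in cancer. Calcium ion binding was attached to the 4 RasGRP genes and to neither Sos gene, and diacylglycerol binding to Rasgrp1 alone. Sos1 and Sos2 were each placed in 46 KEGG pathways, against 6, 6, 5 and 3 for Rasgrp1 to Rasgrp4.

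Other genes around Ras were taken from 11 lists of 160 genes in all, which hold none of the 6 exchange factors. Of these, 159 were listed and 149 tested. In limma, 49 rose and 7 fell in HG, that is 37.6% of them, near the 40.1% of all genes tested, with a median log2 fold change of 0.13 against 0.09. After median-of-ratios scaling the counts were 26 higher and 19 lower, and the split over all genes tested moved likewise, from 70.7% of calls higher to 47.4%. Genes of the KEGG Ras signaling pathway other than the 6, a set looked at after the values had been seen, gave 57 higher and 14 lower of 185 tested (38.4%), and 35 and 30 after that scaling. The KEGG MAPK signaling pathway gave 71 higher and 28 lower of 250 tested (39.6%), and 35 and 44 after that scaling.

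**Figure D3:**
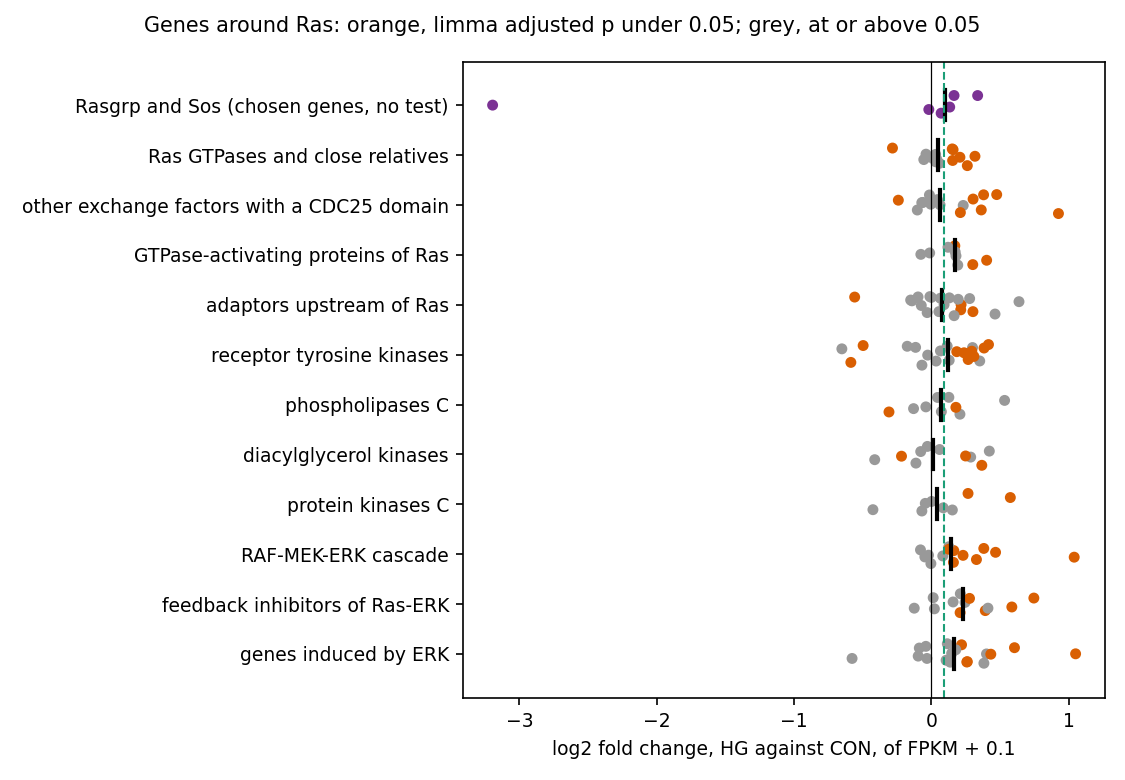
Log2 fold change (HG against CON, of FPKM + 0.1) of each tested gene of the 11 pathway lists and of the 6 exchange factors (purple, no test). Orange points had a limma adjusted p under 0.05, black bars are list medians and the dashed line is the median of all genes tested, 0.09. The list medians lie between 0.02 and 0.23, several of them turning negative with median-of-ratios factors, and Rasgrp1 lies alone at -3.20.

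The substrates of these exchange factors are Ras proteins and their relatives, of which 6 rose and 1 fell among 14 tested (median log2 fold change 0.05, and -0.04 with median-of-ratios factors, where 1 rose and 1 fell). Hras fell from 30.3 ± 1.06 to 24.9 ± 0.805 FPKM (SD, n = 5 each; log2 fold change -0.28, limma adjusted p = 0.000141), and Nras rose from 31.6 ± 0.941 to 38.0 ± 1.64 FPKM (0.26, limma adjusted p = 0.000266). The groups did not overlap for either gene. Rras2 rose by 0.16 on the log2 scale (limma adjusted p = 0.0109), a call that was lost with median-of-ratios factors.

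Of 19 other genes for exchange factors with a CDC25 domain, 15 were tested, 6 rose and 1 fell (median 0.06, and -0.02 with median-of-ratios factors, where 4 rose and 2 fell). Rasgef1b, whose product acts on Rap2, rose from 0.905 ± 0.223 to 1.78 ± 0.199 FPKM (SD, n = 5 each; log2 fold change 0.93, limma adjusted p = 0.000757). Ralgps2 and Rgl2, from the branch that activates Ral GTPases, rose by 0.48 (limma adjusted p = 0.000273) and 0.30 (limma adjusted p = 0.000694). The calcium-regulated factors Rasgrf1 and Rasgrf2 were under the filter, as were Rasgef1a and Rasgef1c. Rasgrf1 did not exceed 0.0219 FPKM in any library, and Rasgrf2 had means of 0.0484 FPKM in CON and 0.0631 FPKM in HG.

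GTPase-activating proteins, which turn Ras off, had 3 of 9 tested genes higher and 0 lower (median 0.17; 2 higher and 1 lower with median-of-ratios factors). Rasa3 rose by 0.30 (limma adjusted p = 0.00491) and Dab2ip by 0.17 (limma adjusted p = 0.00784), the last a call lost with those factors.

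Genes upstream of the exchange factors were taken in order from the membrane. Receptor tyrosine kinases had 7 higher and 2 lower of 20 tested (median 0.12; 5 and 4 with median-of-ratios factors). Fgfr1 rose from 25.2 ± 0.551 to 33.0 ± 2.39 FPKM (SD, n = 5 each; log2 fold change 0.38, limma adjusted p = 9.61e-05) and Fgfr2 by 0.42 (limma adjusted p = 0.00124). Kit, the stem cell factor receptor, fell from 8.83 ± 0.398 to 6.23 ± 0.360 FPKM (-0.50, limma adjusted p = 4.00e-05). Adaptors had 3 higher and 1 lower of 20 tested (median 0.08), and 0 higher and 4 lower with median-of-ratios factors. Lcp2, which encodes the SLP-76 adaptor of blood cells, fell from 1.38 ± 0.195 to 0.900 ± 0.106 FPKM (-0.56, limma adjusted p = 0.00307). Irs2 and Frs2 rose by 0.30 (limma adjusted p = 0.0104) and 0.22 (limma adjusted p = 0.0176), both calls lost with those factors. Grb2, the partner of Sos named after its values were seen, had means of 44.9 ± 1.46 and 46.7 ± 1.01 FPKM (log2 fold change 0.06, and -0.03 with those factors; limma adjusted p = 0.216).

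RasGRP proteins are tied to diacylglycerol, which phospholipases C make, diacylglycerol kinases remove and protein kinases C also bind. Phospholipases C had 1 higher and 1 lower of 9 tested (median 0.07, and -0.02 with median-of-ratios factors, where 0 rose and 2 fell). Plcb4 fell by 0.31 on the log2 scale (limma adjusted p = 0.00633), and Plcd1 rose by 0.18 (limma adjusted p = 0.0352), a call lost with those factors and without CON library 3 or 4 or HG library 2 or 3, at 0.12 to 0.18. Plcg1, which works upstream of RasGRP1 in T cells and was named after its values were seen, had means of 56.3 ± 4.07 and 59.3 ± 3.98 FPKM (log2 fold change 0.07, and -0.02 with those factors; limma adjusted p = 0.336). Diacylglycerol kinases had 2 higher and 1 lower of 10 tested (median 0.02, and -0.06 with those factors). Dgka rose by 0.37 (limma adjusted p = 0.00520), Dgkq by 0.25 (limma adjusted p = 0.0433, lost with those factors and with CON library 1, 2, 3 or 4 or HG library 1, 3 or 5 omitted, at 0.18 to 0.27), and Dgkd fell by 0.22 (limma adjusted p = 0.0138). Of 8 tested protein kinases C, 2 rose and 0 fell (median 0.04, and -0.04 with those factors, where 1 rose and 1 fell). Prkcb rose from 0.476 ± 0.0223 to 0.762 ± 0.0970 FPKM (0.58, limma adjusted p = 0.00267) and Prkch by 0.27 (limma adjusted p = 0.0109), the second a call lost with those factors. Prkcq, the theta isoform of T cells, was under the filter with means of 0.0981 FPKM in CON and 0.0753 FPKM in HG.

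Downstream, the RAF-MEK-ERK cascade had 8 higher and 0 lower of 14 tested genes (57.1%; median 0.14), and 5 higher and 2 lower with median-of-ratios factors. Rps6ka6, of the ribosomal S6 kinase family, was 1 of the 2 DEGs of all 11 lists. Its FPKM were 1.33, 1.57, 1.51, 1.51 and 1.50 in CON and 3.17, 2.79, 2.95, 3.61 and 3.31 in HG. It rose in every HG library above every CON library (log2 fold change 1.04, limma adjusted p = 5.24e-06). Rps6ka1 rose by 0.47 (limma adjusted p = 0.00113) and Shoc2, a scaffold that helps activate RAF, by 0.23 (limma adjusted p = 0.00294). Mapk3, which encodes an ERK kinase and was named after its values were seen, had a log2 fold change of 0.16 (limma adjusted p = 0.00464, a call lost with those factors).

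Genes that ERK activity is known to induce, and feedback inhibitors that are themselves induced by it, are often read as transcript-level signs of Ras-ERK signalling. Of 18 tested ERK-induced genes, 6 rose and 0 fell (33.3%, against 40.1% of all genes tested; median 0.16; 4 and 0 with median-of-ratios factors). Of 12 tested feedback inhibitors, 5 rose and 0 fell (41.7%; median 0.23; 3 and 1 with those factors). The other 12 ERK-induced genes were not called, among them the immediate early genes Fos, Jun and Egr1, chosen as examples after their values were seen. Fos had means of 2.59 ± 1.12 and 1.58 ± 0.177 FPKM (log2 fold change -0.58, limma adjusted p = 0.0791), Jun a log2 fold change of -0.10 (limma adjusted p = 0.377) and Egr1 of 0.18 (limma adjusted p = 0.453). Etv4, an ETS transcription factor and the other DEG of the 11 lists, had FPKM of 6.85, 5.84, 5.76, 6.30 and 7.06 in CON and 15.0, 13.8, 13.6, 12.6 and 11.5 in HG. All HG libraries lay above all CON libraries, with means of 6.36 ± 0.586 and 13.3 ± 1.31 (SD, n = 5 each; log2 fold change 1.05, limma adjusted p = 2.37e-06). Its relative Etv5 rose from 5.13 ± 0.288 to 7.91 ± 1.01 FPKM (0.61, limma adjusted p = 0.000177) and Epha2 from 5.34 ± 0.275 to 7.27 ± 0.797 FPKM (0.43, limma adjusted p = 0.000846). Among the feedback inhibitors, the ERK phosphatase genes Dusp4 and Dusp6 rose by 0.59 (limma adjusted p = 8.94e-05) and 0.39 (limma adjusted p = 0.00196), and Spred3 from 1.15 ± 0.0837 to 2.00 ± 0.222 FPKM (0.75, limma adjusted p = 0.000128). The groups did not overlap for these named risers. Phosphorylation of ERK and the GTP loading of Ras were not measured by these libraries.

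**Figure D4:**
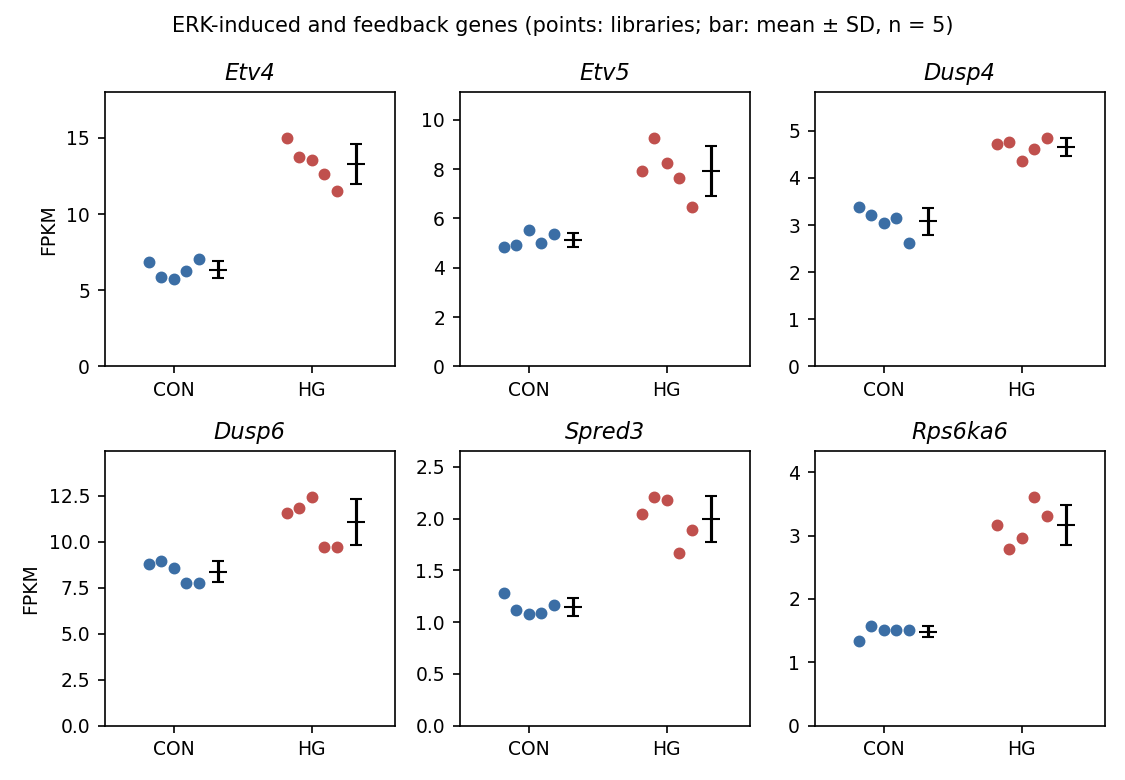
FPKM of Etv4, Etv5, Dusp4, Dusp6, Spred3 and Rps6ka6 in each library (points; blue CON, red HG; linear axes from 0), with the mean ± SD of 5 libraries as a bar. These were picked by the smallest adjusted p and do not stand for all genes of their lists. For each of them the 5 HG points lie above the 5 CON points, for example 11.5 to 15.0 against 5.76 to 7.06 FPKM for Etv4.

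Since RasGRP genes are known from blood cells, endothelium and neurons, markers of these cells were read beside Rasgrp1. T cell and thymocyte markers (14 of 16 listed) summed to 2.83 to 3.81 FPKM in CON and 3.46 to 3.77 FPKM in HG, and 9 of them had a mean under 0.1 FPKM. The genes of the T cell receptor complex, named after their values were seen, were near 0, with at most 0.0443 FPKM for Cd3e, 0.0734 for Cd3g and 0.0686 for Cd3d in any library. Of 5 tested T cell markers, 2 were higher and 0 lower (1 and 0 with median-of-ratios factors). Cd5 rose from 0.318 ± 0.125 to 0.655 ± 0.148 FPKM (log2 fold change 0.88, limma adjusted p = 0.00535). Lck rose from 0.314 ± 0.103 to 0.539 ± 0.152 FPKM (0.63, limma adjusted p = 0.0453). The groups overlapped for Cd5 and for Lck. Cd8a, the most abundant, had group means of 1.15 ± 0.387 and 1.13 ± 0.140 FPKM (SD, n = 5 each), and Cd4 of 1.04 ± 0.103 and 1.10 ± 0.215 FPKM. Rag1 was the only listed T cell marker whose groups did not overlap, and it was lower in HG. Its FPKM ran from 0.0252 to 0.104 over the CON libraries and from 0 to 0.0160 over the HG libraries. Being under the filter, it was not tested. Zap70, tested but not called, also had its lower mean in HG (log2 fold change -0.27, limma adjusted p = 0.392).

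B cell markers summed to 0.326 to 0.837 FPKM in CON and 0.236 to 0.984 FPKM in HG, with 0 of 2 tested called, and Cd79a the most abundant (log2 fold change -0.46, limma adjusted p = 0.249). Platelet and megakaryocyte markers (7 of 8 listed) summed to 14.4 to 21.5 and 11.6 to 20.3 FPKM, with 0 of 7 called and Pf4 the most abundant (-0.25, limma adjusted p = 0.246). Endothelial markers summed to 288 to 313 and 300 to 327 FPKM, with 3 of 8 higher and 0 lower (1 and 1 with median-of-ratios factors). Cdh5, the most abundant of them, had means of 71.4 ± 3.85 and 70.0 ± 5.16 FPKM. Neuronal markers summed to 4.72 to 5.79 and 4.01 to 5.13 FPKM, with 1 of 5 tested higher and 2 lower (0 and 2 with median-of-ratios factors), among them Prph (-0.43, limma adjusted p = 0.0204; lost without CON library 1 or 4, at -0.37 to -0.36, and with the replicate number as a block). The group ranges overlapped for each of these sums.

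The sum of the mast cell markers (7 of 8 listed) separated the groups, at 8.98 to 10.6 FPKM in CON and 6.09 to 7.17 FPKM in HG. Of 5 tested, 3 were lower. Most of the sum was Kit, at 8.33 to 9.32 FPKM in CON and 5.79 to 6.70 FPKM in HG. Kit is also in the list of receptor tyrosine kinases. Of the other listed mast cell markers, only Hdc had groups that did not overlap. Hdc had a log2 fold change of -1.42 (limma adjusted p = 0.0185), with FPKM of 0.0965 to 1.19 in CON and 0.0232 to 0.0893 in HG. Over the alternative settings its log2 fold change was -2.39 to -0.367, and its limma adjusted p reached 0.0721. Tpsab1 had a log2 fold change of -1.04 (limma adjusted p = 0.0351). That call was lost with CON library 1, 4 or 5 or HG library 1, 2, 3 or 5 omitted, at -1.06 to -0.90. Cpa3 and Ms4a2 were under the filter. Rasgrp4, the RasGRP known from mast cells, had its higher mean in HG. The part of mast cells in the Rasgrp1 values was not tested.

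Among markers of the main cells of the heart, cardiomyocyte genes had 1 higher and 6 lower of 8, and 1 and 7 with median-of-ratios factors. Actc1, the most abundant, had a log2 fold change of -0.16 (limma adjusted p = 0.114), and was called with those factors, at -0.25, and with voom on the recovered reads, while Myh6, the adult-type myosin heavy chain, fell from 432 ± 40.6 to 211 ± 20.7 FPKM (-1.03, limma adjusted p = 1.97e-06). Macrophage markers summed to 46.8 to 60.3 FPKM in CON and 57.3 to 70.2 FPKM in HG, with 3 of 8 higher and 0 lower (2 and 0 with those factors). C1qc was the most abundant (0.16, limma adjusted p = 0.280), and Adgre1, which encodes F4/80, rose by 1.00 on the log2 scale (limma adjusted p = 0.000661). Fibroblast markers summed to 1216 to 1458 and 1128 to 1317 FPKM, with 2 higher and 3 lower of 7 (2 and 5 with those factors). Col1a1, the most abundant, had a log2 fold change of -0.12 (limma adjusted p = 0.115) and was called with those factors, at -0.21, and without CON library 4 or HG library 2, at -0.17 to -0.16. The part of any of these cells in the Rasgrp1 values was not tested. Among the markers of the 9 lists that were listed with values, none was at 0 in all libraries. Cd247, Cd8b, Gp1bb and Fcer1a were not listed.

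**Figure D5:**
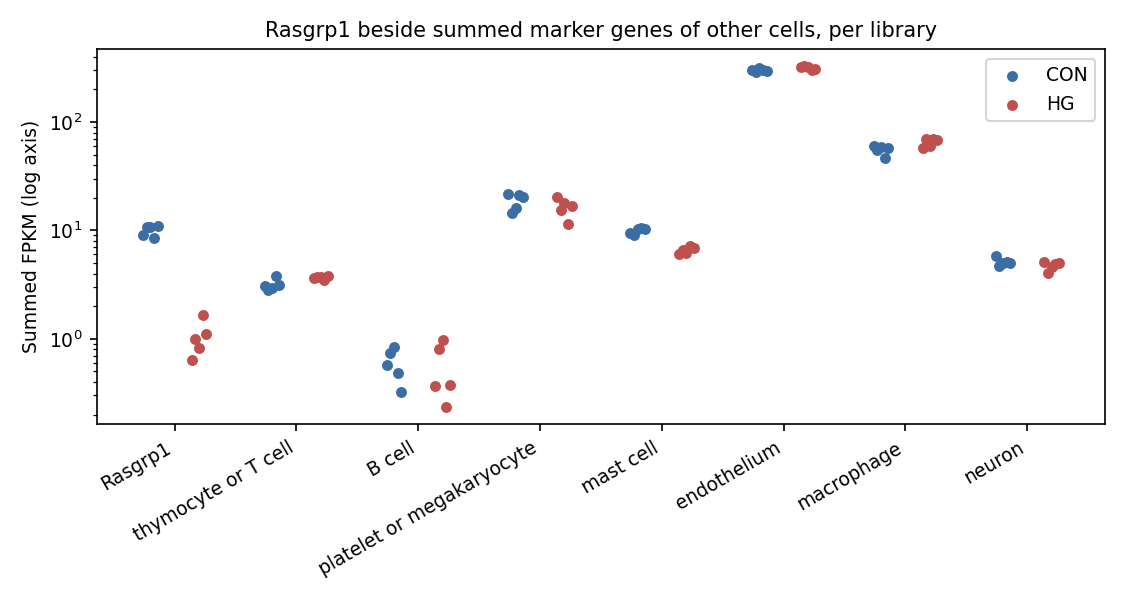
Rasgrp1 and the summed FPKM of markers of 7 other cell types in each library (log axis; blue CON, red HG; points are libraries). Rasgrp1 lies at 8.56 to 11.0 FPKM in CON and 0.637 to 1.67 FPKM in HG. The sums overlap between the groups except for mast cell markers, at 8.98 to 10.6 against 6.09 to 7.17 FPKM, most of which is Kit.

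The genes whose values across the 10 libraries were most like those of Rasgrp1 were sought among the 11708 genes that averaged 1 FPKM or more, by Pearson's r of log2(FPKM + 0.1). They were Ncam1 (r = 0.990), Fabp3 (0.989), Asb18 (0.988), Strip2 (0.986) and Pcca (0.985), and the most opposite were Rai14 (-0.990), Hmga2 (-0.988) and Pgrmc1 (-0.988). Ncam1, a cell adhesion molecule, went from 40.4 ± 2.04 to 20.4 ± 1.36 FPKM, and Fabp3, the fatty acid carrier of heart muscle, from 1049 ± 15.7 to 761 ± 27.0 FPKM (SD, n = 5 each). None of the first 5 stayed among the 5 most like Rasgrp1 without HG library 1, and 2 to 4 of them did with another single library omitted. All points share the same libraries, and the 2 groups stand apart, so these values mostly rank genes by how cleanly they separate CON from HG. With the group means removed, r with Ncam1 was 0.683. The genes most like Rasgrp1 within the groups were others, Ccne2 (0.946), Mtf2 (0.929) and Stk39 (0.918). HG library 4 was the highest HG library for Ccne2, Mtf2 and Stk39, as it was for Rasgrp1. Between the groups, their log2 fold changes were 0.16, 0.34 and 0.16, against -3.20 for Rasgrp1, and the limma calls of Ccne2 and Stk39 were lost with median-of-ratios factors. They were also lost without CON library 4, and that of Stk39 without CON library 1, 3 or 5 or HG library 2, 4 or 5, at 0.15 for Ccne2 and 0.12 to 0.17 for Stk39. Of the other exchange factors, Rasgrp2 had r of -0.620 with Rasgrp1 across the libraries, Rasgrp3 -0.327, Sos1 0.250 and Sos2 -0.644. With the group means removed these were -0.459, -0.548, 0.665 and 0.188, so that Sos1 came close to Ncam1 within the groups. Rasgrp4 lay under 1 FPKM and was not ranked.

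The genes beside the exchange factors on the chromosome were looked at after the values had been seen, as the 3 protein-coding genes on each side in the RefSeq order of build GRCr8, used here for order only. Of 36 neighbours, 32 were listed and tested, and 8 were higher and 2 lower in HG. Over all genes tested, 28.4% were higher and 11.8% lower, so nothing particular to these neighbours is read from the count. None of the 5 tested neighbours of Rasgrp1 fell. Fam98b, next to it on one side, had means of 11.0 ± 1.37 and 12.7 ± 2.03 FPKM (log2 fold change 0.20, limma adjusted p = 0.195). Thbs1, next to it on the other side, had means of 23.3 ± 3.71 and 29.8 ± 5.77 FPKM (0.35, limma adjusted p = 0.0590). Fsip1, beyond Thbs1, rose from 0.313 ± 0.0508 to 0.673 ± 0.130 FPKM (0.89, limma adjusted p = 0.00101). Spred1 and Gpr176 had log2 fold changes of 0.25 (limma adjusted p = 0.0557) and -0.39 (limma adjusted p = 0.191). Of the tested neighbours of Rasgrp1, only Gpr176, at means of 0.230 ± 0.0811 and 0.150 ± 0.0444 FPKM, had a lower mean in HG. The same families recurred beside several exchange factors, with Fam98b, Fam98a and Fam98c near Rasgrp1, Rasgrp3 and Rasgrp4, Spred1 and Spred3 near Rasgrp1 and Rasgrp4, and Map4k2, Map4k1 and Map4k3 near Rasgrp2, Rasgrp4 and Sos1. Near Rasgrp4, Fam98c rose by 0.45 (limma adjusted p = 4.32e-05) and Spred3 by 0.75 (limma adjusted p = 0.000128). Next to Rasgrp2, Pygm, the muscle glycogen phosphorylase gene, fell from 230 ± 7.81 to 162 ± 9.82 FPKM (-0.51, limma adjusted p = 6.29e-06), while Rasgrp2 itself overlapped between the groups.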

How the data were processed

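Stranded mRNA libraries, 5 from CON and 5 from HG fetal hearts, were processed by the authors, who deposited FPKM per gene and library with GO and KEGG terms. The submitters' processing notes name fastp, HISAT2, HTSeq, R 3.2.0 and build mRatBN7.2, and the methods of the study name DESeq, which takes counts and was not used here. All per-library columns were used. Each FPKM was a whole multiple of 1 read for 100% of the genes (tolerance 0.05 of a read), which gave 16672876 to 19109844 reads on genes per library. Counting errors cover sampling of reads only.

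Genes that averaged 0.1 FPKM or more entered the fit by limma 3.58.1 in R 4.3.3 of log2(FPKM + 0.1), with a variance trend, no covariate and Benjamini-Hochberg adjustment over all 14542 genes tested. Genes with an adjusted p under 0.05 were called, and those with an absolute log2 fold change above 1 were DEGs. The model was tested on simulated data for HG against CON over 14542 genes. Of 200 changed genes 194 were called, with 15 unchanged genes called, and 0 genes were called when no change was simulated. The changed genes were drawn from those with a mean log2(FPKM + 0.1) above 0. Their absolute log2 fold changes were at least 1, and the noise was independent between genes. Smaller changes and changes of lower genes were thus not covered. Summaries and figures used Python 3.11.15, numpy 2.4.6, pandas 2.3.3 and matplotlib 3.10.9. Promoters and gene order came from RefSeq tables of build GRCr8, and no coordinates of the deposited build were used.

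The 6 genes and the 20 gene lists (11 of the pathway, 9 of markers) were chosen with earlier results of these data known. The KEGG sets, chromosomal neighbours, promoter motifs and 3 direct partners (Grb2, Plcg1 and Mapk3) were added after the values were seen. Named by rule were the 6 genes, the up to 3 called genes with the smallest adjusted p of each pathway list and its DEGs, the most abundant gene and the DEGs of each marker list, and the genes most like or unlike Rasgrp1. A gene named by this rule is not reported here. Other marker genes were named after their values were seen, to show the level of defining genes. Settings changed 1 at a time were the pseudocount (1 or 0.01), the filter (none, or an average of 1 FPKM), the scaling (median-of-ratios factors, quantile normalization, or rescaling without hemoglobin genes), the trend (none), the replicate number (as a block), the method (voom on recovered reads) and the libraries (any 1 of the 10 omitted).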

Additional observations from a re-analysis of the deposited data

Results flagged for a closer look

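In groups of 5 libraries, the gap of the highest or lowest library to its nearest neighbour was compared with the range of the group (Dixon's ratio, critical value 0.71). Of 126 groups tested, 8 exceeded it, where chance gives about 1 in 20, and none belonged to the 6 exchange factors. For 4 genes the CON group held the library that stood apart. Hdc in CON library 3 had 1.19 FPKM against a group median of 0.257 (ratio 0.8086), Prkch in CON library 3 had 3.43 FPKM against 2.99 (0.7765), Rps6ka6 in CON library 1 had 1.33 FPKM against 1.51 (0.7345), and Stk39 in CON library 2 had 50.5 FPKM against 46.3 (0.7315). In the HG group, Frs2 in library 5 had 7.52 FPKM against a group median of 6.54 (0.8583), Tpsab1 in library 4 had 0.231 FPKM where the median was 0 (0.8152), Rgl2 in library 4 had 17.2 FPKM against 19.5 (0.7883), and Ccne2 in library 4 had 13.8 FPKM against 12.1 (0.7123).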

How the results depend on the processing

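The calls over all genes (5836), over the pathway lists (56) and over the marker lists (26) stayed within 1.5 times under every alternative, at 4834 to 5960, 45 to 61 and 20 to 26. DEGs numbered 282, and 134 with a filter at a mean of 1 FPKM, 64 with a pseudocount of 1 and 426 with voom. The log2 fold change of Rasgrp1 was -2.44 with a pseudocount of 1. That of Sos1 was -0.107 with median-of-ratios factors and -0.108 with quantile normalization, and that of Sos2 0.0461 and 0.0370. Of the 5 genes most like Rasgrp1, 3 were shared with median-of-ratios factors, 2 with quantile normalization, 2 with a pseudocount of 1, and 0 to 4 when single libraries were left out, 0 of them without HG library 1.

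With any 1 of the 10 libraries omitted, the log2 fold changes spanned -3.37 to -3.05 for Rasgrp1, 0.10 to 0.23 for Rasgrp2, -0.01 to 0.14 for Rasgrp3, 0.23 to 0.43 for Rasgrp4, -0.05 to 0.00469 for Sos1 and 0.10 to 0.16 for Sos2. Directions that turned belonged to genes that were not called. Cd8a was at -0.0505 with median-of-ratios factors and -0.0390 with quantile normalization, and spanned -0.0909 to 0.186 with single libraries omitted. Cdh5 spanned -0.0533 to 0.0175. With median-of-ratios factors, Grb2 was at -0.0341 and Plcg1 at -0.0162. The causes were not tested. For other single genes, 59 values lost a call, 5 gained one and 1063 kept both direction and call.

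Replicate numbers are shared by the groups, but nothing says that a number marks a dam or a batch, and libraries with the same number deviated from their group means with correlations of -0.126 to 0.108. With the replicate number as a block, 5096 genes were called, 281 of them DEGs, with 50 called in the pathway lists and 22 in the marker lists. The Rasgrp1 log2 fold change remained -3.20, and the calls of Ccne2, Frs2, Prph and Stk39 were lost. Depth limits Rasgrp4, with 28 to 63 reads in a library, and the 3483 genes under the filter.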
